A study of Mus musculus with 10 samples.

Results

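The enzymes that make and break down haem were followed in mouse hepatocytes across the day and along the liver lobule. The 9 members described here were chosen by gene symbol (alas1, alad, uros, urod, cpox, ppox, fech, hmox1 and blvrb, in lower case in the count tables) and all were present among the 14812 gene entries: 7 enzymes of synthesis (Alas1, Alad, Uros, Urod, Cpox, Ppox and Fech) and 2 of breakdown (Hmox1 and Blvrb). All 9 passed the filter of a mean of at least 3 CPM (UMI counts scaled to a common library total, where a UMI, or unique molecular identifier, marks 1 captured transcript) that left 8908 genes for the tests over time. The series holds 10 single-cell libraries of hepatocytes from C57BL/6 male mice aged 3 months on regular chow without restriction. Zeitgeber time (ZT) counts hours from lights on by convention, and the livers were sampled at ZT0 (3 libraries, lettered A to C), ZT6 (2, A and B), ZT12 (3, A to C) and ZT18 (2, A and B). All groups shared strain, sex, age, diet, ketamine and xylazine anaesthesia, collagenase perfusion with Percoll enrichment, and the droplet 3' chemistry. The labels do not say whether libraries of 1 time came from separate mice, so p-values measure the spread between these libraries.

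Haem is the iron-containing ring that binds oxygen or electrons in cytochromes, catalase and haemoglobin. In the liver much of it goes into cytochrome P450 enzymes, which are most abundant around the central vein. The first enzyme, aminolevulinate synthase 1, limits the rate of the pathway in hepatocytes and is repressed by haem itself, and its gene is known for a daily rhythm. Synthesis begins in mitochondria, continues in the cytosol and ends in mitochondria, where ferrochelatase inserts iron. Haem oxygenase opens the ring to biliverdin, which biliverdin reductases then reduce.

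The libraries held 710 to 2860 cells and 1454623 to 7144803 UMIs each, 18378 cells in all. The 8 hepatocyte markers together reached 44212 to 89051 CPM. Of 14 macrophage markers, 5 (Clec4f, Csf1r, C1qa, C1qb and C1qc) had no UMI and only Slc40a1, which hepatocytes also express, averaged over 3 CPM. Haemoglobin genes summed to 0.34 to 8.80 CPM in 9 libraries and to 293 CPM in library ZT18 B, where 6.44% of cells had a haemoglobin UMI. The count of members with a rhythm was 1 with and without such cells. Both ZT18 libraries, and no others, carried sample indices from column 4 of the index plate, so time and index column cannot be told apart for ZT18.

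Of the 9 members, 7 matched a RefSeq promoter window of GRCm38.p6, reaching from 250 bases before to 50 after a transcript start (11 windows in all, from 32851 of that length). Stretches for 3 members are shown: Alas1 for its called rhythm, Blvrb for its called step along the lobule and Alad for its low level at ZT18, a difference that missed the threshold and cannot be told apart from index column 4. Each is written 5′ to 3′ on the gene's strand with 1 motif in capitals. The Alas1 stretch, chr9:106247908-106247935 on the minus strand, overlaps an annotated exon, and its capitals mark the palindrome bound by the mitochondrial gene activator NRF1. The Blvrb stretch, chr7:27447728-27447977 on the plus strand, overlaps no annotated exon, and its capitals mark CTTTGAA, a TCF motif of the Wnt pathway. The Alad stretch, chr4:62520064-62520313 on the minus strand, overlaps no annotated exon, and its capitals mark the E-box CACGTG, the motif of clock activators.
Alas1: cgcacccaagGCGCATGCGCggcggtca
Blvrb: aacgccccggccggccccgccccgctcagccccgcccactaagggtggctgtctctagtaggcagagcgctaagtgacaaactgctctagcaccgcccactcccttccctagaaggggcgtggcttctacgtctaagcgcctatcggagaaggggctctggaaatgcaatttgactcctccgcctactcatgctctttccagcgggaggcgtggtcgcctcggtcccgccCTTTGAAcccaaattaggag
Alad: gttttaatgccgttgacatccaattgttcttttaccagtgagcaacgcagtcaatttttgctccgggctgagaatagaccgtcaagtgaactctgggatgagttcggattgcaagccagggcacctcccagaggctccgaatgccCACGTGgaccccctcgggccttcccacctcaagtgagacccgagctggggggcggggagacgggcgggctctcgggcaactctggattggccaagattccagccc

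On either strand, the NRF1 palindrome was in 0.971% of all windows and in those of Alas1 among the members. The TCF letters were in 5.13% of all windows and in windows of Blvrb alone among the members. The E-box was in 7.15% of all windows and in windows of Alad, Urod and Uros. AGATAA, the motif of GATA factors, was in 11.2% of all windows and in that of Cpox. The D-box TTANGTAA (2.32% of windows), the ROR and REV-ERB letters NAGGTCA (16.2%), the antioxidant response core TGACNNNGC (12.4%) and the HNF4 letters CAAAGTCCA (0.475%) were in no member window. These matches describe letters in these windows and show no binding.

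Alas1 was the one member with a called 24-h rhythm. Its transcript was lowest at ZT0 and highest at ZT12, the start of the dark phase by convention. At ZT0 the level of Alas1 was 59.3, 40.0 and 53.7 CPM in libraries A, B and C. At ZT6 it was 55.5 CPM in A and 151 CPM in B. At ZT12 it was 292, 240.0 and 243 CPM. The 3 ZT12 libraries stood above all others, a pattern that 4.54% of the 8908 genes showed, and the 2 ZT6 libraries lay far apart. At ZT18 the level was 158 and 141 CPM. The means were 51.0 ± 9.96 (SD, n = 3) at ZT0, 103 ± 67.6 (n = 2) at ZT6, 258 ± 29.3 (n = 3) at ZT12 and 149.8 ± 11.8 CPM (n = 2) at ZT18. Neighbours in that order, ZT0 and ZT6, then ZT6 and ZT18, overlapped in their libraries, whereas ZT18 and ZT12 did not.

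**Figure D1:**
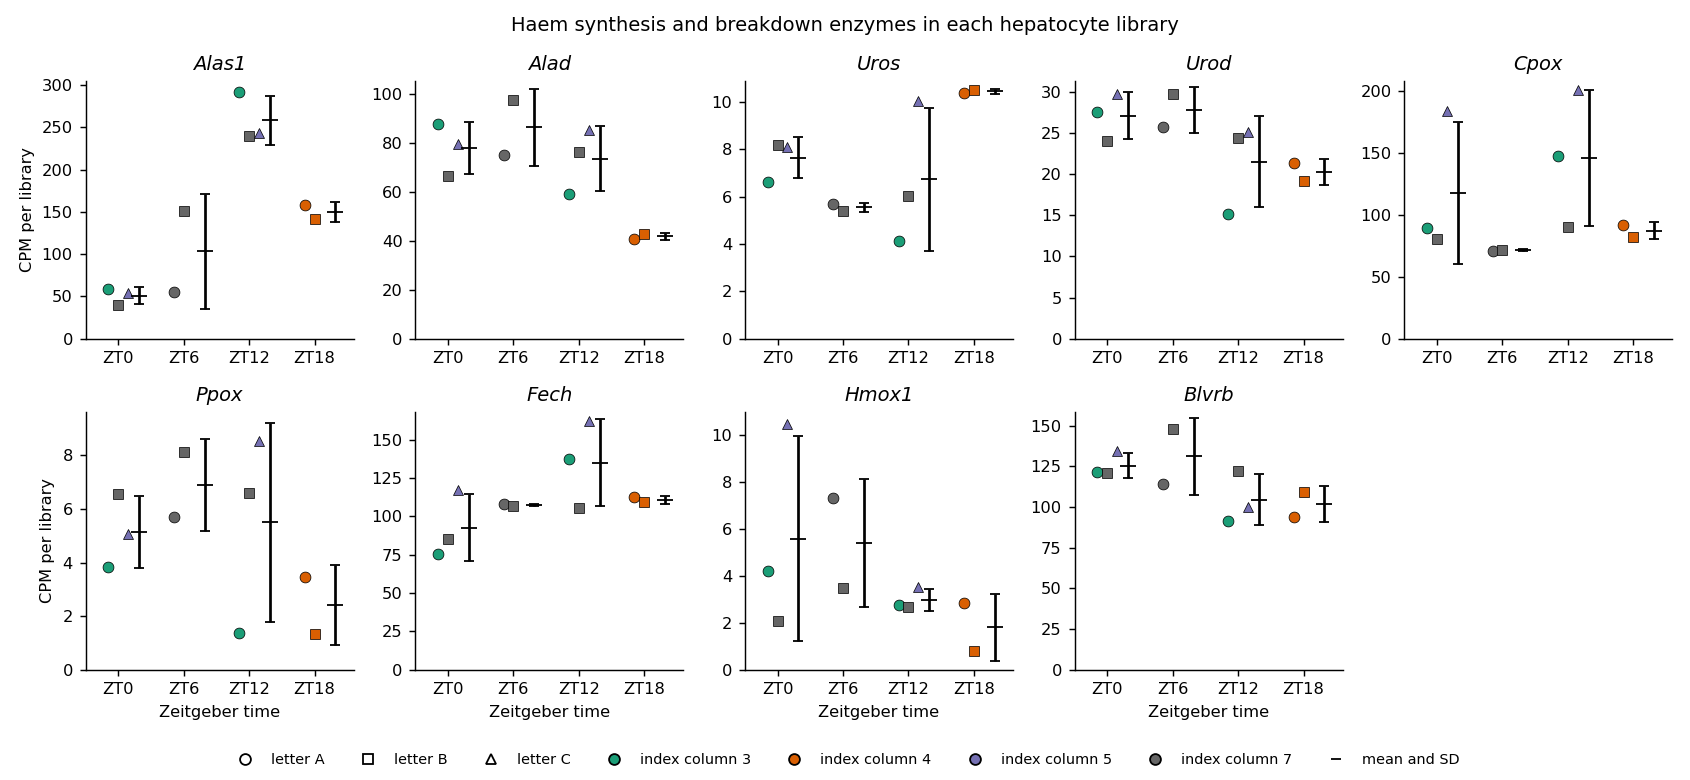
Level of each of the 9 enzymes in each library, in CPM (y axis, from 0, a separate scale for each gene), at each Zeitgeber time (x axis). Symbols give the library's letter, colours the column of its sample index, and the bar beside them the mean and SD of the time. Alas1 rises from 51.0 CPM at ZT0 to 258 CPM at ZT12, both ZT18 libraries of Alad lie below all others, and the letter C libraries of Cpox are the highest at ZT0 and ZT12.

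A 24-h cosine fitted to Alas1 with edgeR's quasi-likelihood model had a log2 amplitude of 1.14 and its maximum at ZT 13.0 (adjusted p = 0.00435). Of all genes tested, 5.14% were called in this test, against 1 of the 9 members. Between ZT12 and ZT0 Alas1 differed by 2.19 ± 0.33 (SE) on the log2 scale, a 4.57-fold rise (edgeR, adjusted p = 0.00183). When the 4 times were free to differ in any pattern, 6.58% of genes were called, and Alas1 alone among the members (edgeR, adjusted p = 0.00531). Alas1 was also the one member called between ZT12 and ZT0, a contrast in which 3.44% of genes were called (1.74% higher at ZT12 and 1.7% lower), and 18.1% of genes had ZT12 and ZT0 libraries that did not overlap. With the letter as a replicate block, 504 genes in place of 306 were called there and Alas1 was still the one member. Within each sample index column that held both times, the level of Alas1 in plain CPM at ZT12 was 4.92-fold (column 3), 6.00-fold (column 7) and 4.53-fold (column 5) its ZT0 level.

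None of the 6 other enzymes of synthesis had a called rhythm. Counting all 7 of them, Alas1 included, the median log2 amplitude was 0.50, beside 0.25 over all genes tested. An amplitude cannot fall below 0, and the sparsely counted Uros (0.53) and Ppox (0.64), neither called, lay above that median. Alad encodes aminolevulinate dehydratase, the cytosolic zinc enzyme that makes porphobilinogen. Its level was 88.0, 66.7 and 79.9 CPM at ZT0, and 75.4 and 97.7 CPM at ZT6. At ZT12 it was 59.1, 76.4 and 85.3 CPM, and at ZT18 40.9 and 42.8 CPM. Both ZT18 libraries were below the other 8, which 7.44% of genes shared, while ZT0, ZT6 and ZT12 overlapped. The Alad difference between ZT18 and ZT6 was -0.97 ± 0.25 (SE) on the log2 scale and missed the threshold in edgeR (adjusted p = 0.0508). In that contrast 3.79% of genes were called (2.35% higher at ZT18 and 1.45% lower) and 0 of the 9 members. At an unadjusted p under 0.05 there were 3 members in edgeR (Alad, Uros and Ppox), beside 1744 of all 8908 genes. DESeq2 called 1 member (Alad, adjusted p = 0.0374) and limma-voom 0, and the range of the adjusted p of Alad over all alternatives was 0.0320 to 0.373. The cosine of Alad, with an amplitude of 0.50 and its top at ZT 5.06, was not called (edgeR, adjusted p = 0.131).

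Uros, uroporphyrinogen III synthase, forms the closed ring and was sparsely counted, with 6 to 55 UMIs a library. Its level was 6.63, 8.17 and 8.10 CPM at ZT0, and 5.69 and 5.41 CPM at ZT6. In the ZT12 libraries it was 4.12, 6.02 and 10.0 CPM, and at ZT18 10.4 and 10.5 CPM. The ZT18 libraries were the 2 highest, as they were for 6.14% of genes, though ZT12 C came close to them. The difference between ZT18 and ZT6 was 0.99 ± 0.32 (SE) on the log2 scale and was not called (edgeR, adjusted p = 0.107).

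Urod, which trims the side chains of the ring in the cytosol, ranged from 15.1 CPM in ZT12 A to 29.7 CPM, with a median of 24.7 CPM. Its means were 27.1 ± 2.84 (SD, n = 3) at ZT0, 27.8 ± 2.79 (n = 2) at ZT6, 21.5 ± 5.56 (n = 3) at ZT12 and 20.3 ± 1.59 CPM (n = 2) at ZT18. The amplitude of 0.29 was not called (edgeR, adjusted p = 0.269).

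Cpox, the mitochondrial coproporphyrinogen oxidase, varied widely between libraries of 1 time. Its level was 89.0, 80.1 and 184 CPM at ZT0, and 71.1 and 71.9 CPM at ZT6. At ZT12 it was 147, 90.4 and 200.3 CPM, and at ZT18 91.8 and 82.2 CPM. The letter C libraries of ZT0 and ZT12, which share index column 5, were the 2 highest. Cyp2e1, a central-vein cytochrome and 1 of the 8 pericentral landmarks used below, was also highest in these 2 libraries, at 3125 and 3567 CPM. In the other 8 it was at 733 to 1863 CPM, and its part in the Cpox spread was not tested. The other pericentral landmarks did not share a highest library. Oat was highest in ZT12 C, and Cyp1a2, Gulo and Lect2 in ZT0 C. Mgst1 was highest in ZT0 A, and Aldh1a1 and Rgn in ZT12 A. Between ZT12 and ZT0 Cpox differed by 0.16 ± 0.29 (SE) on the log2 scale (edgeR, adjusted p = 0.849), and its cosine amplitude was 0.19 (edgeR, adjusted p = 0.867). Compared in plain CPM within an index column, Cpox at ZT12 was 1.65-fold (column 3), 1.13-fold (column 7) and 1.09-fold (column 5) its ZT0 level. CPM scales by library size alone, which in the fit shifted the median of all genes between ZT12 and ZT0 by 0.14 (log2). The Cpox folds of columns 7 and 5 are near that shift, at 0.17 and 0.12 on the log2(CPM + 1) scale.

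Ppox, the oxidase that forms protoporphyrin, was carried by 2 to 47 UMIs a library, at 1.35 to 8.53 CPM. Its lowest values were 1.35 CPM in ZT18 B and 1.37 CPM in ZT12 A, and its ZT18 to ZT6 difference of -1.43 ± 0.58 (SE, log2) was not called (edgeR, adjusted p = 0.190). Fech, ferrochelatase, was at 75.7, 85.0 and 117 CPM at ZT0, and at 108 and 107 CPM at ZT6. At ZT12 it was at 137, 106 and 162 CPM, and at ZT18 at 113 and 109 CPM. The ZT12 mean was the highest, but its libraries overlapped those of each other time, and the ZT12 to ZT0 difference was 0.40 ± 0.19 (SE, log2; edgeR, adjusted p = 0.337). Within each of the 3 shared index columns Fech was higher at ZT12, by 1.82-fold, 1.24-fold and 1.38-fold in columns 3, 7 and 5. These folds are in plain CPM and carry the scaling shift given for Cpox.

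Of the breakdown enzymes, Hmox1, the inducible haem oxygenase, was scarce in these cells. Its level was 4.19, 2.08 and 10.5 CPM at ZT0, and 7.31 and 3.48 CPM at ZT6. The ZT12 libraries gave 2.75, 2.66 and 3.51 CPM, and at ZT18 2.83 and 0.808 CPM, from 3 to 62 UMIs a library. The highest and lowest libraries differed 12.9-fold, and the fitted amplitude of 0.91 (top at ZT 3.50) was not called (edgeR, adjusted p = 0.228). Blvrb, biliverdin reductase B, was between 91.4 and 148 CPM in all libraries. Its means were 125 ± 7.74 (SD, n = 3), 131 ± 23.7 (n = 2), 104 ± 15.8 (n = 3) and 102 ± 10.9 CPM (n = 2) from ZT0 to ZT18, with neighbouring times overlapping (edgeR rhythm, amplitude 0.25, adjusted p = 0.341).

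Along the lobule the members were graded towards the central vein or not called, and none was called higher near the portal triad. Blood enters the lobule at the portal triad and leaves by the central vein, and hepatocytes differ in their genes along that path. Cells of each library were ordered by 8 periportal and 8 pericentral landmark genes, none of them a member, and split into 3 equal parts, of which the outer ones, called the pericentral and periportal zones, were compared within libraries. Of 9 members, 5 were called and all 5 were higher in the pericentral zone: Blvrb, Cpox, Alad, Fech and Alas1. Of 8907 genes, 24.6% were called (12.7% higher pericentrally and 11.9% periportally). All 9 estimates lay on the pericentral side, as did those of 50.9% of genes. In plain CPM, each of the 5 was higher in the pericentral zone of all 10 libraries, which 8.34% of genes were. The smallest of these steps, Alas1 in ZT18 A, was 165.1 against 164.6 CPM. CPM scales by library size alone, which in the fit shifted the median of all genes by -0.099 relative to TMM. The median difference of the 7 synthesis enzymes was -0.32 on the log2 scale (periportal minus pericentral), beside -0.01 over all genes. Mitochondrial transcripts took a higher share of UMIs in the periportal zone of each library (14.0% to 25.3%, against at most 23.1% in the pericentral zone), and their part in these differences was not tested.

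Sums of markers listed for other cells also differed along this order, though a single gene made up most of some sums. The 10 endothelial markers (Clec4g at 0) summed to 2.18 to 25.1 CPM in the pericentral and 1.75 to 18.5 CPM in the periportal zones, and were higher pericentrally in 9 of 10 libraries. The 8 erythroid markers counted, Alas2 among them, summed to 95.2 to 154 CPM pericentrally and 72.8 to 113 CPM periportally, higher pericentrally in all 10. Their haemoglobin genes reached at most 74.4 and 21.4 CPM and were higher pericentrally in 7 libraries. The 5 neutrophil markers counted reached at most 23.2 and 1.53 CPM (6 libraries) and the 8 stellate markers at most 19.4 and 16.9 CPM (7 libraries). Macrophage and cholangiocyte markers were higher pericentrally in 1 library each, and the 8 lymphocyte markers counted, 5 of them at 0, in 5. Slc40a1, which hepatocytes also express, gave 64.5 of the mean macrophage sum of 68.8 CPM pericentrally and 96.7 of 101 CPM periportally. Sox9 gave 4.61 of 4.65 and 17.7 of 18.2 CPM of the cholangiocyte sums. Alas2 gave 88.5 of 118 and 71.3 of 89.1 CPM of the erythroid sums. The part of other cells in the members' zone differences was not tested.

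Blvrb had the steepest gradient. Its pericentral zone was between 139 and 213 CPM over the 10 libraries (median 182) and its periportal zone between 43.9 and 95.6 CPM (median 62.1), so the ranges did not overlap. In the fit this was -1.43 ± 0.08 (SE) in log2 units (edgeR, adjusted p = 1.94e-16). Over 8 layers of equal cell number, the mean of Blvrb fell at each step, from 236 ± 37.2 CPM (SD, n = 10) in the layer nearest the central vein to 57.1 ± 15.9 CPM in the layer nearest the portal triad. Blvra, the gene of biliverdin reductase A and not a member, averaged 8.49 ± 3.41 CPM pericentrally and 7.81 ± 3.14 CPM periportally (SD, n = 10). Blvra had only 127 pericentral and 115 periportal UMIs in all libraries together, too few to judge a gradient from these means. Which reductase acts on biliverdin in these cells was not tested.

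**Figure D2:**
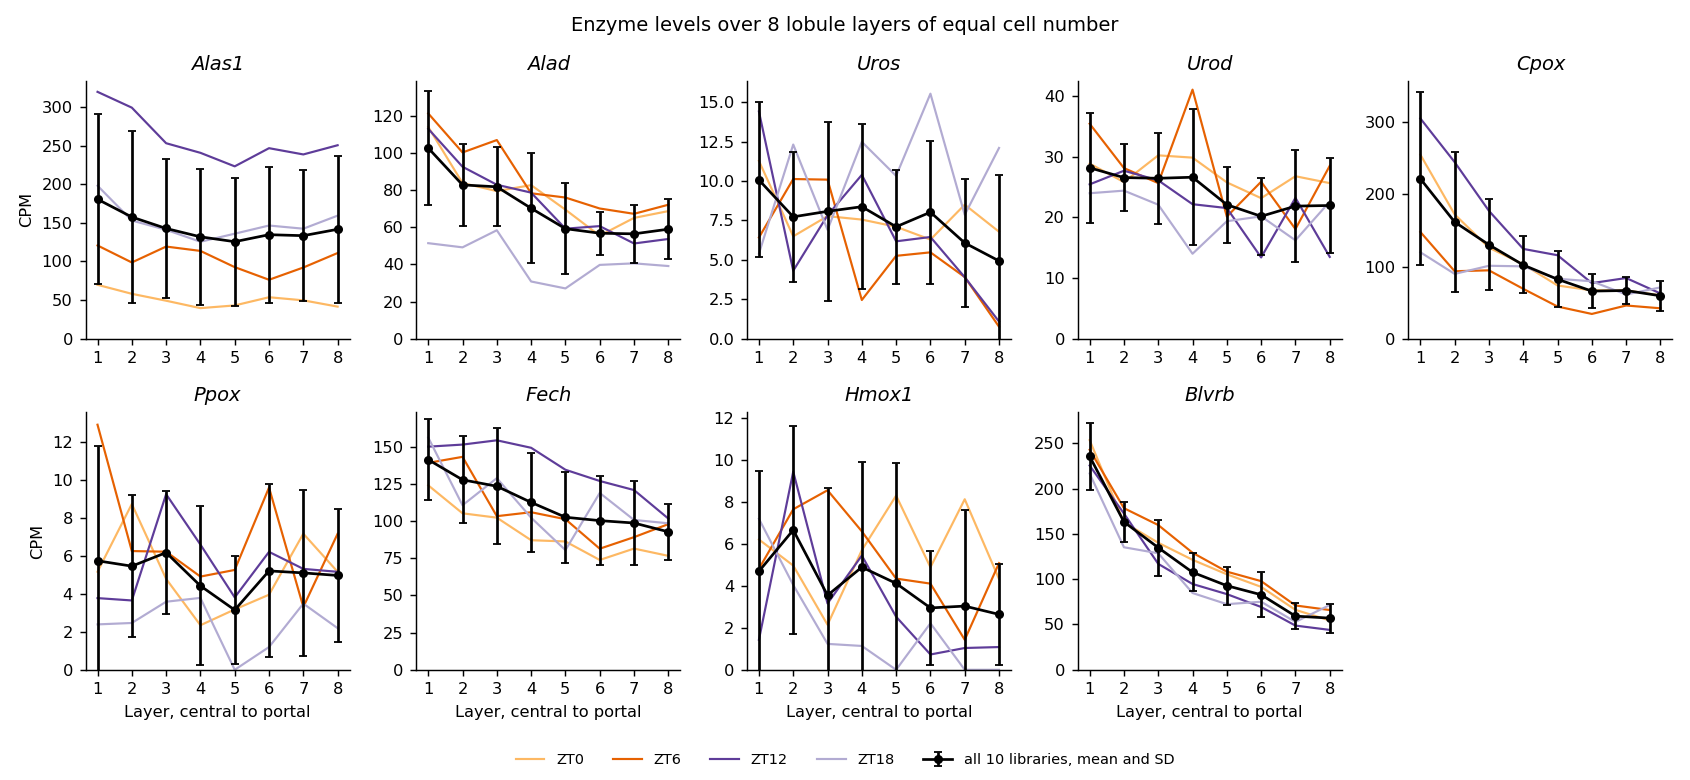
Mean level of each enzyme (CPM, y axis from 0, a separate scale for each gene) over 8 layers of equal cell number ordered from the central vein (1) to the portal triad (8). Black points and bars are the mean and SD over 10 libraries, with bars cut at 0, and coloured lines are the means of each time. Blvrb falls from 236 to 57.1 CPM and Cpox from 222 to 59.4 CPM, while Alas1 goes from 181 to 142 CPM.

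Cpox had the second-steepest gradient, and its size varied among libraries. In the pericentral zone it was at 139.6, 122 and 318 CPM at ZT0 and at 112 CPM in both ZT6 libraries. It was at 279, 135 and 354 CPM at ZT12, and at 113 and 91.5 CPM at ZT18. The periportal zone stayed between 36.9 and 91.9 CPM, a narrower span than the 91.5 to 354 CPM near the central vein. The fitted step was -1.25 ± 0.11 (SE, log2; edgeR, adjusted p = 2.47e-11), and single libraries gave -2.02 (ZT0 C) to -0.39 (ZT18 B). From the first to the last layer Cpox fell from 222 ± 120.0 to 59.4 ± 20.9 CPM (SD, n = 10).

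Alad ran from 53.0 to 127 CPM (median 96.6) near the central vein, and from 33.3 to 77.1 CPM (median 57.4) on the portal side. The fitted step was -0.56 ± 0.08 (SE, log2; edgeR, adjusted p = 2.79e-07). Fech, the last enzyme, was at 90.5 to 202 CPM and 62.0 to 127 CPM in these zones, and the step between them was -0.36 ± 0.07 (SE) on the log2 scale (edgeR, adjusted p = 0.000171). Among cells with at least 3000 UMIs, of which library ZT12 C held 44, the Fech difference was -0.28 and no longer called (edgeR, adjusted p = 0.103).

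Alas1 had the smallest of the called gradients, at -0.22 ± 0.07 (SE, log2; edgeR, adjusted p = 0.0194). The call was lost without library ZT12 B (edgeR, adjusted p = 0.0585) and among cells with at least 3000 UMIs (-0.13, adjusted p = 0.569). Its mean was 181 ± 110.4 CPM (SD, n = 10) in the layer nearest the central vein, 126 ± 82.9 CPM in the fifth layer and 142 ± 95.4 CPM in the layer nearest the portal triad. These SDs include the change over the day.

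**Figure D3:**
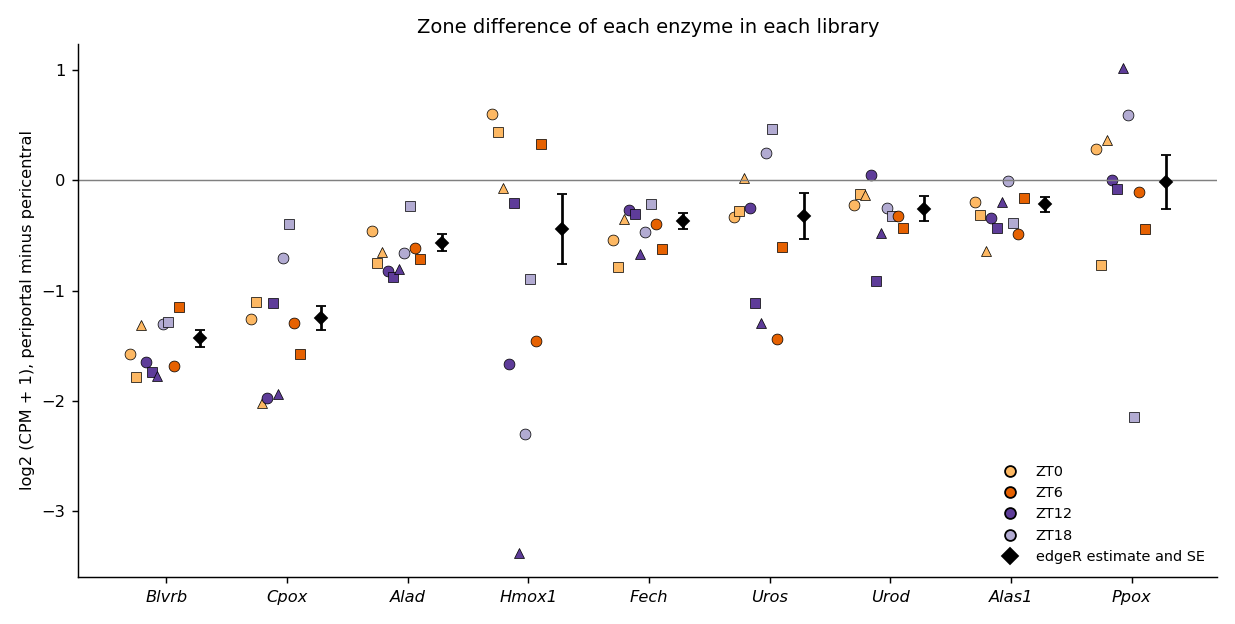
Difference between the periportal and pericentral zones of each library on the log2(CPM + 1) scale (y axis) for each enzyme (x axis, in order of the fitted estimate). Coloured points are libraries by time, with circles, squares and triangles for letters A, B and C, and black diamonds are the edgeR estimate with its SE. Blvrb, Cpox, Alad, Fech and Alas1 lie below 0 in all 10 libraries, Alas1 in ZT18 A at only -0.0045, and Hmox1, Uros and Ppox scatter on both sides of 0.

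The other 4 members were not called between zones. Urod differed by -0.25 ± 0.11 (SE, log2; edgeR, adjusted p = 0.0932) and was called when counts were scaled by library size alone (adjusted p = 0.0157), a scaling that shifted the median of all genes by -0.099. Under it 702 genes were called periportal and 1823 pericentral, in place of 1060 and 1134. Uros differed by -0.32 ± 0.21 and Hmox1 by -0.44 ± 0.32 (SE, log2). Ppox, which had only 89 pericentral and 82 periportal UMIs in all libraries together, differed by -0.01 ± 0.24 (SE, log2), and its sign changed under 5 of 22 alternatives.

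Whether the daily profile differed between the zones was tested as an interaction. None of the 9 members was called in edgeR, nor in DESeq2 or limma-voom, and 0.0337% of all genes were called in edgeR. At an unadjusted p under 0.05 there was 1 member in edgeR (Uros), 0 in DESeq2 and 1 in limma-voom. Of all 8907 genes, 541, 118 and 548 were under it in these tools. The mean of Alas1 at ZT0 was 60.5 ± 9.96 CPM in the pericentral zone and 46.5 ± 10.7 CPM in the periportal zone (SD, n = 3). At ZT12 these means were 298 ± 44.7 and 238 ± 34.0 CPM, so the higher level at ZT12 was present in both.

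**Figure D4:**
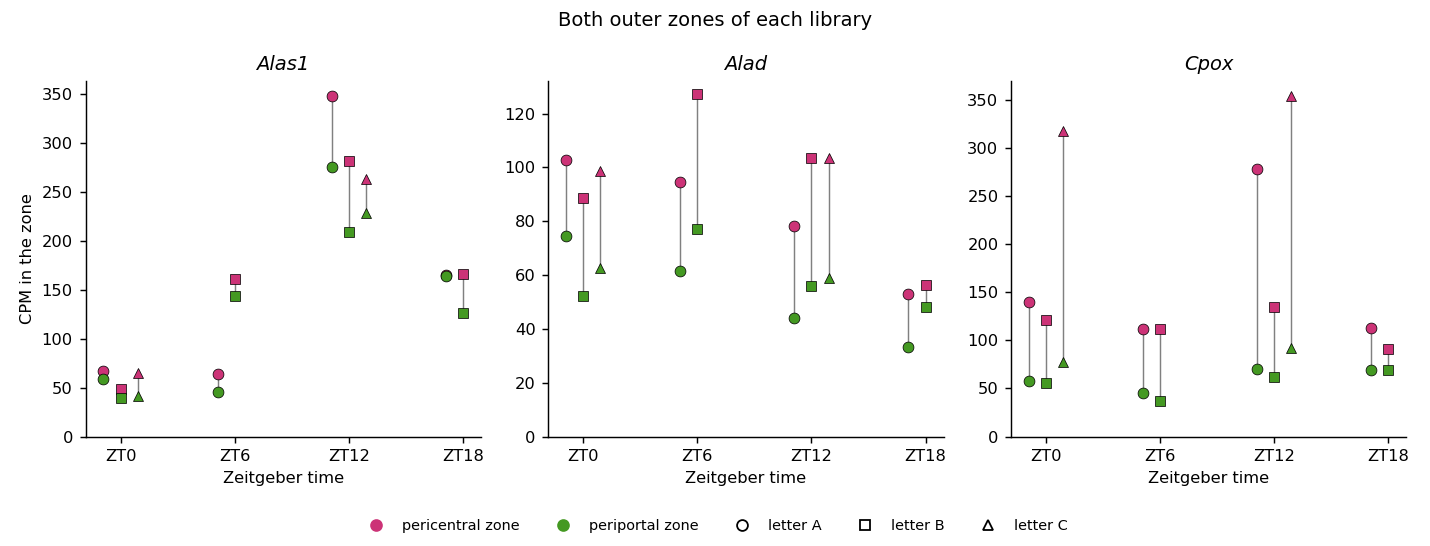
Level (CPM, y axis from 0) of Alas1, Alad and Cpox in the pericentral and periportal zones of each library, joined by a line, at each Zeitgeber time (x axis). Both zones of Alas1 are highest at ZT12, and the widest Cpox gaps are in the letter C libraries and ZT12 A.

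Uros had an interaction amplitude of 1.01 (edgeR, adjusted p = 0.659). Its periportal level was 3.01 and 4.35 CPM at ZT6, and 3.51, 3.18 and 4.52 CPM at ZT12, below the pericentral level of the same library in each case. These periportal levels rest on 2 to 8 UMIs a library, and ZT12 A had 2 UMIs in each zone. At ZT18 the periportal level was 11.1 and 12.2 CPM (13 and 16 UMIs), above the pericentral 9.17 and 8.56 CPM (9 and 10 UMIs). Cpox differed least between zones at ZT18, by -0.70 and -0.39 on the log2(CPM + 1) scale, against -1.10 to -2.02 in the other 8 libraries, and its interaction amplitude of 0.45 was not called (edgeR, adjusted p = 0.795). Without the ZT18 libraries that amplitude was 0.15. For ZT18, time and index column 4 cannot be told apart. Zones are equal parts of each library's own cell order, so the stretch of lobule they cover can differ between libraries. The part of this in the ZT18 values of Uros and Cpox was not tested.

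Genes with profiles most like the 3 members of lowest rhythm p were sought by Pearson correlation of log2(CPM + 1) over the 10 libraries, among 4340 or 4341 other genes with at least 20 CPM. The points share libraries, depth and times, so r is a description. For Alas1 they were Mfsd2a, a lysophospholipid transporter (r = 0.95), Plekha8, a lipid transfer protein (r = 0.92), and Usp2, a deubiquitinase (r = 0.92). Mfsd2a averaged 3.90 ± 1.99 CPM at ZT0 and 75.6 ± 23.5 CPM at ZT12 (SD, n = 3). For Alad they were Park7 (r = 0.98), Ndufv1, a subunit of respiratory complex I (r = 0.98), and Atp5d, a subunit of ATP synthase (r = 0.96). For Uros they were Slc25a44 (r = 0.95), Actn4 (r = 0.93) and C8a, a complement component (r = 0.91).

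Of 31 genes that transport or handle haem, its precursors or its iron, 29 were tested (Flvcr1 and Flvcr2 were not). The single gene with a called rhythm, beside 5.14% of all genes, was Clpx, which encodes the mitochondrial unfoldase known to act on aminolevulinate synthase, both in its activation and in its haem-dependent breakdown. Clpx was at 175, 222 and 251 CPM at ZT0, and at 108 and 82.7 CPM at ZT6. The ZT12 libraries were at 50.2, 31.9 and 41.2 CPM, and at ZT18 at 184 and 173 CPM. Its ZT12 libraries were the 3 lowest where those of Alas1 were the 3 highest, and its fitted curve, of log2 amplitude 1.35, was highest at ZT 22.6 (edgeR, adjusted p = 0.000527). The ZT12 to ZT0 difference of Clpx was -2.55 ± 0.21 (SE, log2; edgeR, adjusted p = 1.42e-05), and the difference between zones, 0.13 ± 0.08 (SE, log2), was not called (edgeR, adjusted p = 0.296).

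**Figure D5:**
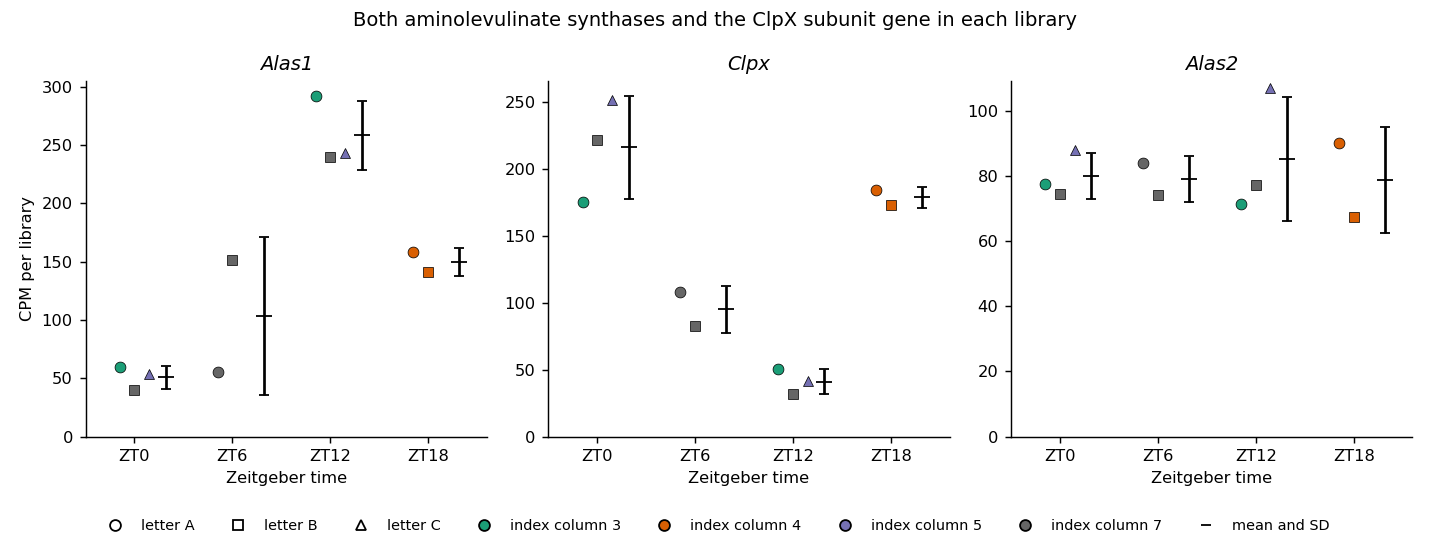
Level in each library (CPM, y axis from 0, a separate scale for each gene) of Alas1, Clpx and Alas2 at each Zeitgeber time (x axis), with symbols for letters, colours for sample index columns and bars for the mean and SD. Clpx is lowest at ZT12 (41.1 CPM) where Alas1 is highest (258 CPM), and Alas2 lies between 67.4 and 107 CPM at all times.

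Between ZT18 and ZT6, 2 of the 29 were called, Clpx higher at ZT18 and Hmox2 lower, beside 3.79% of all genes. Hmox2, the constitutive haem oxygenase, was named after its values were seen: it was at 11.3 and 11.6 CPM at ZT18 against 19.9 to 28.4 CPM in the other 8 libraries. Both ZT18 libraries were below all others for 7.44% of the 8908 genes, and ZT18 cannot be told apart from index column 4. The ZT18 to ZT6 difference of Hmox2 was -1.23 ± 0.26 (SE, log2; edgeR, adjusted p = 0.0207). Between zones 10 of these 29 genes were called, 4 higher in the periportal and 6 in the pericentral zone, beside 24.6% of all genes (11.9% and 12.7%). Hpx, the plasma haem scavenger hemopexin, was the strongest, at 4796 ± 1291 CPM in the periportal and 1812 ± 579 CPM in the pericentral zone (SD, n = 10), a log2 difference of 1.52 ± 0.08 (SE). Abcg2, a porphyrin exporter, and Fabp1, a liver fatty acid carrier, were both lower in the periportal zone by -0.79 on the log2 scale, and Slc25a37, a mitochondrial iron importer, by -0.40.

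Of 23 listed regulators of Alas1 or Hmox1, 22 were tested (Npas2 was not) and 10 had a called rhythm, beside 5.14% of all genes. Between ZT12 and ZT0, 7 were called higher at ZT12 and 2 lower, beside 1.74% and 1.7% of all genes. The list holds core clock genes, so this count is not specific to haem. The 4 with the largest amplitude were Nr1d1, Dbp, Arntl and Nr1d2. Nr1d1, a nuclear receptor that binds haem, was at 39.6 and 24.7 CPM at ZT6 and at most 10.0 CPM elsewhere. Dbp, a clock output factor, peaked at ZT 9.46, Arntl at ZT 21.6 and Nr1d2 at ZT 10.2.

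Between zones 8 of the 22 regulators were called, 4 in each direction, beside 11.9% of all genes called periportal and 12.7% pericentral. Nr1i3, the xenobiotic receptor CAR, was lower in the periportal zone by -1.83 ± 0.09 and Cebpb by -0.72 ± 0.07 (SE, log2). Ppargc1a, the coactivator known to induce Alas1 in fasting, was higher there by 1.73 ± 0.16 and Esrra, a nuclear receptor, by 1.06 ± 0.12. Of 34 haem proteins, 32 were tested over time and 1 had a called rhythm, a count near the 5.14% share of all genes. It was Cyp7a1, the rate-limiting enzyme of bile acid synthesis (amplitude 1.02, highest at ZT 13.2, adjusted p = 0.0431 in edgeR). Leaving out the landmarks, 24 of 29 haem proteins were called between zones, 18 of them pericentral and 6 periportal, beside 24.6% of all genes called. The 4 with the largest difference were Cyp2c37 (-5.41), Cyp2a5 (-4.98), Cyp2c29 (-4.52) and Cyp2c50 (-3.77 on the log2 scale, periportal minus pericentral).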

How the data were processed

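The deposited tables hold whole-number UMI counts per gene and cell, 1 table a library, which the authors made from 10x Chromium 3' version 2 libraries per the labels. The submitters' processing notes name Cell Ranger, mm10 and hg19 without a role. The deposited cells held 1048 to 10001 UMIs, their column names are serial, so barcodes shared between libraries were not counted, and whether doublets had been removed is not given in the sources used here. No cell was left out. Counts were summed per library, per zone (3 equal parts of the cell order) and per layer (8 equal parts), with cells ordered within a library by the mean z-score of 8 periportal minus 8 pericentral landmarks.

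edgeR 4.0.16 (R 4.3.3) fitted quasi-likelihood models with TMM scaling to genes with a mean CPM of at least 3: a 24-h cosine and sine, 1 mean per time, and zone with library as a block. A gene was called at a Benjamini-Hochberg adjusted p under 0.05 over all genes tested. A log2 amplitude is the distance from mean to peak. The 3 libraries of ZT0 and ZT12 with the same letter deviated together (r = 0.239, 0.428 and 0.485 over 8908 genes) and share an index column, so letters pair these times, whereas ZT6 and ZT18 share only letters (r = 0.0326). Libraries of 1 time differed beyond counting error (chi-square per degree of freedom at least 5.76). DESeq2 1.42.0, limma 3.58.1, other scalings, filters, cells and libraries were alternatives, and the code was tested on simulated data. 2 genes are not reported here and enter no count of members or markers. All 9 members are named. Other genes are named as the up to 4 called genes of a list with the largest fold (rhythm and zone tests) or by correlation. Exceptions are Hmox2, Alas2, Blvra, Cyp2e1 and the other pericentral landmarks, named after their values were seen, and markers. The members and lists were chosen with earlier results of these data known. UMIs are counted near the 3' end and levels are not compared between genes. Gene positions are from GENCODE M21 and RefSeq on GRCm38.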

Additional observations from a re-analysis of the deposited data

How the results depend on the processing

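The count of members with a rhythm (1, Alas1), of those different between ZT12 and ZT0 (1, Alas1) and of those with a zone-dependent rhythm (0) was the same under all alternatives run. The amplitude of Alas1 stayed between 1.06 and 1.30. The count of members different between ZT18 and ZT6 moved from 0 to 1, Alad each time, under some alternatives. These were library size alone, DESeq2, no filter, a mean CPM of at least 20 and no cells with a haemoglobin UMI. The letter as a replicate block, which pairs ZT0 with ZT12 but not ZT6 with ZT18, also called Alad (1 member, 730 genes in place of 338). The count was 0 to 1 when 1 library was left out (1 without ZT0 A, ZT0 B or ZT12 A). The count of members different between zones was 4 to 5 when 1 library was left out and 3 among cells with at least 3000 UMIs. The letter block kept 1 member with a rhythm (749 genes in place of 458) and changed no other count of members. Genes with a rhythm numbered 792 with DESeq2, 710 without a filter, 283 with at least 20 CPM and 231 without the ZT18 libraries, an alternative chosen after seeing the data; 1218 in place of 2194 genes were called between zones among the deeper cells. The 306 genes different between ZT12 and ZT0 became 469 without a filter, and the 338 between ZT18 and ZT6 became 595 without it and 199 with at least 20 CPM. Leaving out 1 library gave 228 to 465 genes with a rhythm (272 without ZT6 B, 301 without ZT12 B, 228 without ZT18 A and 249 without ZT18 B) and, between ZT18 and ZT6, where the lone library is taken to vary like the other groups, 50 without ZT6 A, 60 without ZT6 B, 80 without ZT18 A and 66 without ZT18 B. The 3 genes with a zone-dependent rhythm became 42 without a filter, 32 with the letter block, 29 among the deeper cells, 7 with 5 parts in place of 3, 5 with library size alone, 1 without haemoglobin-positive cells, without ZT18 or with odd-numbered landmarks, and 0 with DESeq2, limma-voom or at least 20 CPM; leaving out 1 library gave 36 without ZT0 C, 6 without ZT0 A or ZT12 C, 1 without ZT6 B or ZT12 B and 0 without ZT18 A or ZT18 B. Library size alone shifted the median of all genes by 0.14 between ZT12 and ZT0 (202 higher and 101 lower, in place of 155 and 151). Of 753 single-member values, 14 changed direction, none of them called: Ppox between ZT12 and ZT0 (-0.02 with limma-voom), the peak of Ppox (amplitude 0.031) with the index column as a block, Ppox between zones (0.019 without ZT18, 0.086 with 5 parts in place of 3) and the Cpox interaction (0.15 without ZT18). When 1 library was left out, Cpox had a rhythm amplitude of 0.080 to 0.40 and the ZT12 minus ZT0 differences ran from -0.081 to 0.56 (Cpox) and -0.16 to 0.35 (Ppox), and that of Ppox between zones from -0.12 to 0.16. For Uros, Ppox and Hmox1 the number of UMIs limits what can be seen.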

Other observations

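Alas2, the aminolevulinate synthase known from red cell precursors, was counted in all 10 hepatocyte libraries. Its level was 77.5, 74.6 and 88.0 CPM at ZT0, and 84.1 and 74.2 CPM at ZT6. The ZT12 libraries gave 71.5, 77.1 and 107 CPM and those of ZT18 90.2 and 67.4 CPM. Unlike the haemoglobin genes, Alas2 was not highest in library ZT18 B, where Hbb-bs reached 142 CPM and Alas2 had its lowest level. Its fitted amplitude was 0.05 (edgeR, adjusted p = 0.955), and it averaged 88.5 ± 16.2 CPM in the pericentral and 71.3 ± 9.82 CPM in the periportal zone (SD, n = 10; edgeR, adjusted p = 0.0820).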
